A study of Mus musculus with 5 samples.

Results

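Granins, Vgf and the enzymes that cut prohormones were followed in the mouse hippocampus after seizures. The genes were chosen by symbol and comprised 9 of the 55385 genes counted: the cargo genes Vgf, Scg2, Chga and Chgb, the sorting protein Scg3, the chaperone Scg5, the convertases Pcsk1 and Pcsk2, and the carboxypeptidase Cpe. All 9 were among the 19768 genes that passed the filter on low counts. Male C57/bl6 mice, aged 3 months, received kainic acid (20 mg/kg, intraperitoneally), an agonist of glutamate receptors that drives hippocampal neurons into synchronous firing. Total RNA of the hippocampus was sequenced from a control (1 library) and from animals killed 1 h (1 library), 4 h (2 libraries, called mouse 1 and mouse 2) or 8 h (1 library) after seizure onset. The names mouse 1 and mouse 2 follow the numbers in the sample titles, which do not say whether each library came from 1 animal. The treatment label of this library reads control, without mention of vehicle, so handling and injection cannot be told apart from kainic acid. The control library held 19100374 counts on genes, the 1 h library 17744508, mouse 1 18250114, mouse 2 19109204 and the 8 h library 16612225.

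Neurons store neuropeptides and several growth factors in dense-core vesicles, which bud from the trans-Golgi network and release their content after strong or repeated firing. Granins are acidic proteins that aggregate in the lumen of these vesicles, and most of them, like Vgf, are also precursors from which bioactive peptides are cut. The convertases encoded by Pcsk1 and Pcsk2 cleave precursors after pairs of basic residues, and carboxypeptidase E then trims the basic residues left at the end of each peptide. Vgf and Scg2 are known in the hippocampus as genes that respond to synaptic activity and to neurotrophins.

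Levels are given as normalized CPM, that is, CPM of gene counts after scaling with the TMM factors of edgeR. Counts of the members ranged from 805 for Pcsk1 at 8 h to 41660 for Cpe in mouse 2, so counting error was small. Exact 95% intervals are quoted for single libraries and cover counting error only. Only the 4 h time point was replicated, and edgeR's quasi-likelihood test took its 1 residual degree of freedom from that pair. The control, 1 h and 8 h libraries were assumed to vary like it.

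Mouse 1 stood apart from the other libraries. The 8 activity genes examined as a check of the labels were all 1.5-fold above the control at 1 h, and at 4 h 8 were so in mouse 1 and 4 in mouse 2. All 8 were higher in mouse 1 than in mouse 2, and at 8 h 2 were 1.5-fold higher and 2 lower than in the control. Fos, an immediate early transcription factor, was at 10.8 normalized CPM in the control, 999 at 1 h, 519 in mouse 1, 70.4 in mouse 2 and 17.2 at 8 h. Npas4, another early transcription factor of active neurons, was at 130 in mouse 1 and 4.92 in mouse 2, against 3.92 in the control. Markers of the choroid plexus, the epithelium that borders the hippocampus in the ventricle, summed to 3932 normalized CPM in the control, 1662 at 1 h, 26.4 in mouse 1, 4176 in mouse 2 and 3032 at 8 h. All 4 of these markers were lower in mouse 1 than in mouse 2 and none was at 0, and Ttr, the most abundant, was at 16.3 in mouse 1 and 3971 in mouse 2. The part of these differences in the results on the members was not tested. The 4 h values are therefore given for each library, and mouse 2 alone is the result without mouse 1.

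With an adjusted p under 0.05, edgeR called 0 of the 9 members at 1 h, 4 h or 8 h, against a background of 0% of the 19768 genes at 1 h, 0.00506% at 4 h and 0% at 8 h. The unadjusted p of edgeR was under 0.05 for 2 members at 1 h (Vgf and Scg2), 4 at 4 h (Vgf, Scg2, Chga and Pcsk1) and 2 at 8 h (Vgf and Chga), all of them higher than in the control. Over all tested genes the shares were 2.42% (1 h), 11.6% (4 h) and 4.51% (8 h). DESeq2 called 0 members at 1 h, Vgf at 4 h and Chga at 8 h, and limma-voom called 0 at each time point. Over all genes with an adjusted p, DESeq2 called 50 of 16222 at 1 h, 233 of 14388 at 4 h and 33 of 17445 at 8 h. Limma-voom called 0 of 19768 at each time point. Other settings of edgeR called more: with no filter on low counts it called Vgf, Scg2 and Pcsk1 at 1 h, these and Chga at 4 h, and Scg2 and Chga at 8 h, and with library size alone Vgf, Scg2 and Pcsk1 at 4 h. Under these settings 285, 1300 and 279 of 32732 genes were called with no filter and 237 of 19768 with library size alone at 4 h. By size alone, 3 members were at least 1.5-fold above the control at 1 h (Vgf, Scg2 and Pcsk1), where 10.7% of all tested genes were that much higher and 9.2% that much lower. At 4 h 4 members were at least 1.5-fold higher in both libraries (Vgf, Scg2, Chga and Pcsk1), against 9.91% of all genes higher and 6.28% lower. Mouse 1 alone and mouse 2 alone gave the same 4 members, against 20.9% and 13.6% of all genes higher in the respective library. At 8 h 2 members were past this fold (Scg2 and Chga), against 13.9% of all genes higher and 8.94% lower. No member was 1.5-fold below the control at any time point, in either 4 h library. The members had a median log2 fold change of 0.16 (1 h), 0.25 (4 h) and -0.02 (8 h), beside -0.01, 0.01 and 0.01 over all genes. These comparisons share the control library, so an unusual control value would enter each of them.

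**Figure D1:**
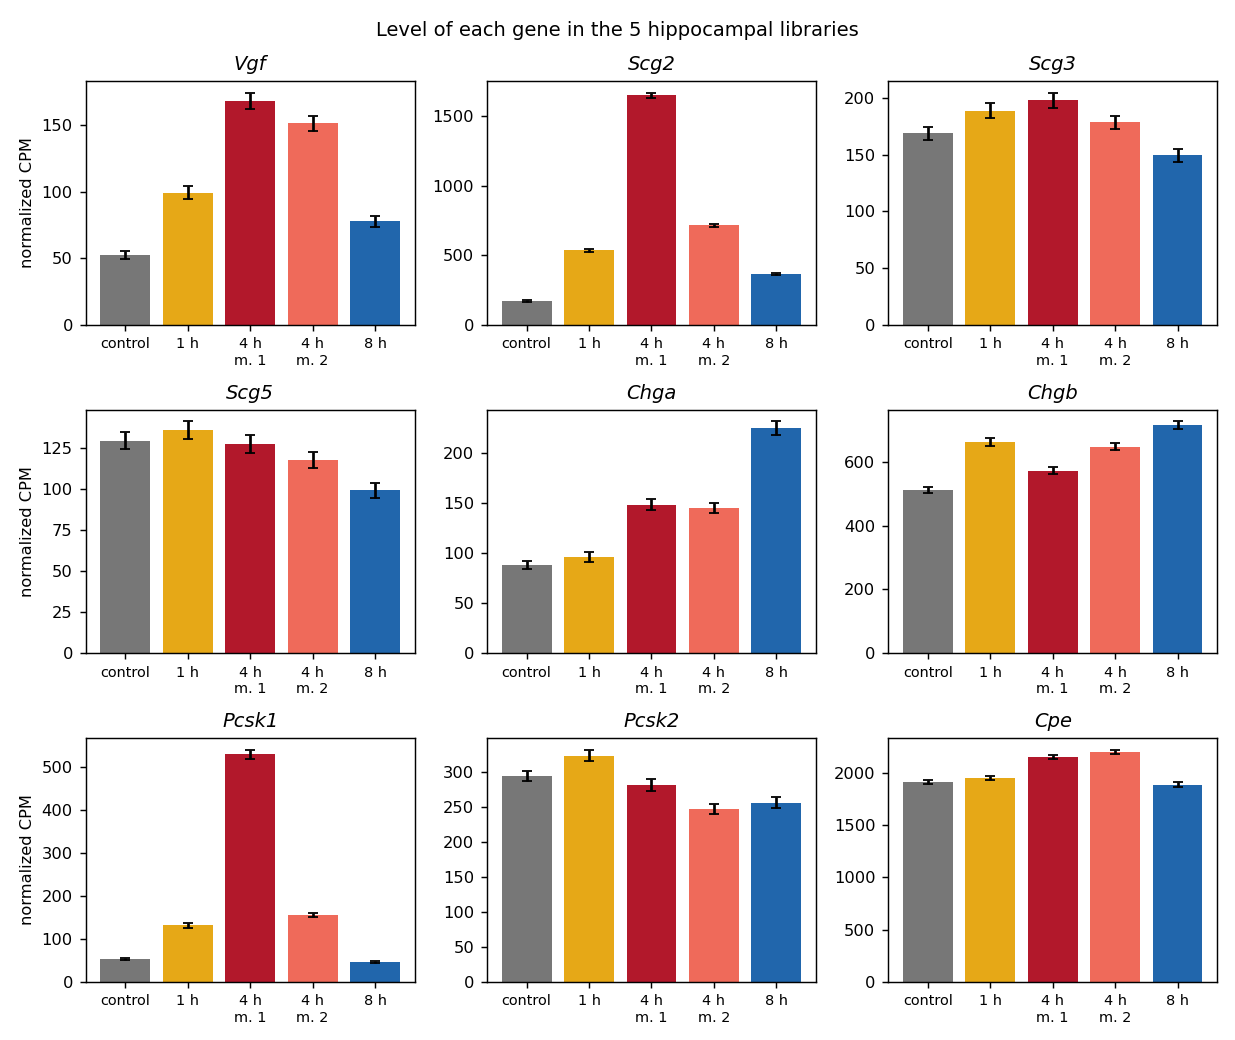
Level of each gene (normalized CPM, axis from 0) in the 5 libraries; bars are single libraries and error bars are exact Poisson 95% intervals, which cover counting error only. Scg2, Pcsk1 and Vgf were highest at 4 h, Chga was highest at 8 h with 224 normalized CPM, and Scg3, Scg5, Pcsk2 and Cpe stayed near the control.

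Scg2 encodes secretogranin II, the granin from which the peptide secretoneurin is cut. Its level was 173 normalized CPM in the control, 537 at 1 h, 1652 in mouse 1, 715 in mouse 2 and 364 at 8 h. Every kainic acid library was thus above the control, and the order of the time points was the same whichever 4 h library was used. The ratio to the control was 3.10 at 1 h (95% interval 2.98 to 3.23), 9.54 in mouse 1, 4.13 in mouse 2 (3.98 to 4.29) and 2.10 at 8 h. By edgeR the 1 h log2 fold change was 1.63 (SE 0.56), the 4 h value 2.77 (SE 0.55, adjusted p of 0.26) and the 8 h value 1.07 (SE 0.55). Scg2 differed 2.31-fold between mouse 1 and mouse 2, which is as large a difference as in 7.3% of the genes compared between them. By the edgeR estimate from both libraries Scg2 had the largest 4 h fold change among the members, though in mouse 1 the ratio of Pcsk1 was larger (10.1), and Scg2 did not pass the threshold.

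Vgf encodes a neurotrophin-inducible precursor of several neuropeptides that is stored beside the granins. It was measured at 52.3 normalized CPM in the control, 99.2 at 1 h, 168 in mouse 1, 151 in mouse 2 and 77.6 at 8 h. Here the pair at 4 h lay close together, with a ratio of 1.11 between the libraries, and both were above all other libraries. The ratio to the control was 1.90 at 1 h (95% interval 1.76 to 2.05), 3.22 and 2.90 in mouse 1 and mouse 2, and 1.49 at 8 h (1.37 to 1.61). The 8 h value was just short of the 1.5-fold limit. The edgeR log2 fold change at 4 h was 1.61 (SE 0.18) with an adjusted p of 0.242, and its unadjusted p of 0.000216 was at rank 15 of the 19768 genes. Vgf was the only member that DESeq2 called at 4 h.

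Pcsk1 encodes prohormone convertase 1/3, which makes the first cuts in many precursors. Its level was 52.7 normalized CPM in the control, 131 at 1 h, 529 in mouse 1, 155 in mouse 2 and 45.9 at 8 h. It thus lay above the control at 1 h and 4 h and just below it at 8 h, with a ratio of 0.872 (95% interval 0.795 to 0.957). The 4 h ratio was 10.1 in mouse 1 and 2.95 in mouse 2. This 3.41-fold difference was the widest among the members, and 2.45% of the genes compared were at least as far apart. The edgeR log2 fold change at 4 h was 2.70 (SE 0.76) with an adjusted p of 0.348. Without mouse 1 the log2 ratio was 1.56, close to the 1.32 measured at 1 h. Pcsk1n encodes proSAAS, an inhibitor of this convertase, and is named here after its values were seen. Its level was 35.5 normalized CPM in the control, 30.6 at 1 h, 26.9 in mouse 1, 30.1 in mouse 2 and 24.1 at 8 h, below the control in each kainic acid library and short of 1.5-fold.

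Pcsk2 encodes prohormone convertase 2, which acts later in the maturing vesicle, and Scg5 encodes 7B2, the chaperone that convertase 2 needs to become active. Pcsk2 was at 294 normalized CPM in the control, 323 at 1 h, 281 in mouse 1, 247 in mouse 2 and 256 at 8 h. Scg5 was at 130 in the control, 136 at 1 h, 128 in mouse 1, 118 in mouse 2 and 99.3 at 8 h. Neither gene left the range between 0.766 and 1.10 times its control level, and the lowest value was that of Scg5 at 8 h. The number of Pcsk2 counts per Scg5 count was 2.27 in the control and ranged from 2.10 to 2.58 in the kainic acid libraries. The edgeR log2 fold change of Pcsk2 was -0.16 (SE 0.17) at 4 h, and that of Scg5 at 8 h was -0.39 (SE 0.19), with an unadjusted p of 0.0962. Of the exon length of Pcsk2, 4.54% overlaps antisense genes, and no other member has such an overlap. The strand setting of the counting is not given, so counts of Pcsk2 may hold some reads of these genes.

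The balance between both convertases can be read inside a library and does not depend on scaling. There were 0.179 Pcsk1 counts for each Pcsk2 count in the control (95% interval 0.167 to 0.191), 0.405 at 1 h, 1.88 in mouse 1, 0.628 in mouse 2 and 0.179 at 8 h (0.166 to 0.194). Pcsk1 thus exceeded Pcsk2 in raw counts only in mouse 1, and the 8 h ratio was back at that of the control. Per kilobase of exon, which is needed to compare genes, Pcsk1 was at 9.40 normalized CPM and Pcsk2 at 37.2 in the control. In mouse 1 the values were 94.5 and 35.5, and in mouse 2 they were 27.7 and 31.2. Among the cargo genes, the control had 0.338 Scg2 counts per Chgb count, against 0.811 at 1 h, 2.89 in mouse 1, 1.10 in mouse 2 and 0.509 at 8 h.

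**Figure D2:**
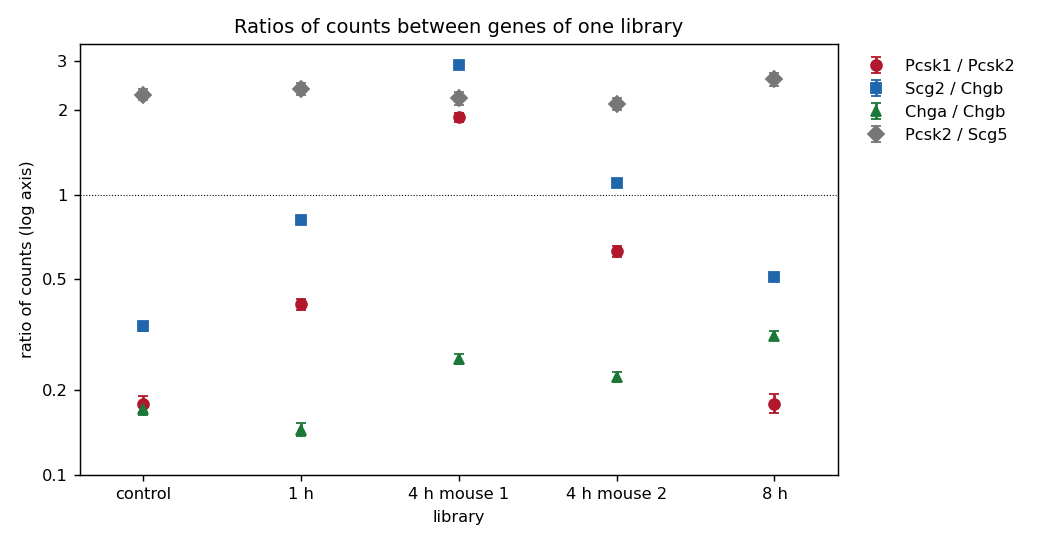
Ratio of counts between pairs of genes in each library (log axis; points are single libraries, error bars exact binomial 95% intervals). Pcsk1 per Pcsk2 and Scg2 per Chgb were highest in mouse 1 at 4 h, whereas Pcsk2 per Scg5 stayed between 2.10 and 2.58.

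Chga and Chgb encode chromogranin A and chromogranin B, granins that bind calcium and help to condense vesicle content. Chga was at 87.7 normalized CPM in the control, 96.0 at 1 h, 148 in mouse 1, 145 in mouse 2 and 224 at 8 h. Its time course differed from that of Vgf, Scg2 and Pcsk1, since the level was near the control at 1 h and highest in the last library. The ratio to the control was 1.09 at 1 h, 1.69 and 1.65 in the 4 h libraries and 2.56 at 8 h (95% interval 2.42 to 2.71). The edgeR log2 fold change was 0.74 (SE 0.16) at 4 h with an adjusted p of 0.288, and 1.35 (SE 0.19) at 8 h with an adjusted p of 0.756. The unadjusted p at 8 h was 0.000549, at rank 13 of the 19768 genes. Mouse 1 and mouse 2 agreed within counting error for Chga, with a ratio of 1.02 (95% interval 0.969 to 1.08), and without mouse 1 the result was nearly the same.

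Chgb was at 512 normalized CPM in the control, 662 at 1 h, 572 in mouse 1, 648 in mouse 2 and 715 at 8 h. All kainic acid libraries were above the control, by 1.12-fold in mouse 1 up to 1.40-fold at 8 h, and none reached 1.5-fold. The edgeR log2 fold change at 8 h was 0.48 (SE 0.20), with an unadjusted p of 0.0546. Mouse 1, which had the highest levels of Scg2 and Pcsk1, had the lowest Chgb level of the kainic acid libraries.

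Scg3 encodes secretogranin III, a membrane-associated granin that binds other granins and draws them into forming vesicles. Its level was 169 normalized CPM in the control, 189 at 1 h, 198 in mouse 1, 178 in mouse 2 and 149 at 8 h. Cpe was the most abundant member, at 1917 in the control, 1955 at 1 h, 2155 in mouse 1, 2203 in mouse 2 and 1890 at 8 h. Both genes stayed within 0.885 to 1.17 times the control level in every library. The largest edgeR log2 fold change of these genes against the control was 0.18 (SE 0.16), for Cpe at 4 h. Cpe is made by astrocytes as well as by neurons, and astrocyte markers summed to 922 normalized CPM in the control, 1014 at 1 h, 1520 in mouse 1, 1355 in mouse 2 and 1356 at 8 h. Among these 4 markers Gfap was past 1.5-fold at 4 h and 8 h, and the part of astrocytes in the Cpe level was not tested.

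**Figure D3:**
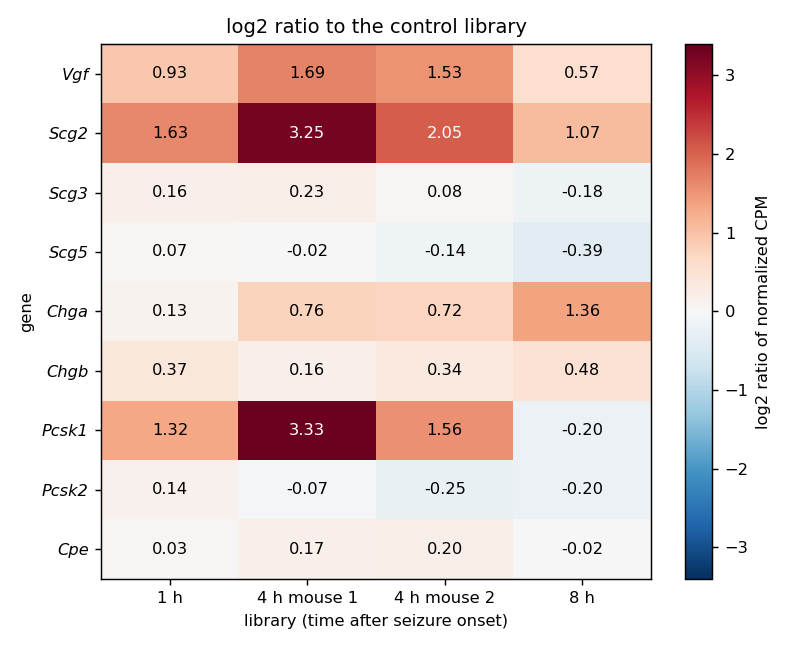
log2 ratio of normalized CPM to the control for each gene (rows) in the 4 kainic acid libraries (columns); red is above and blue below the control. The highest values are those of Pcsk1 (3.33) and Scg2 (3.25) in mouse 1, and the lowest is that of Scg5 at 8 h (-0.39).

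The levels of different genes were ordered per kilobase of exon. In the control this order was Cpe (735 normalized CPM per kilobase), Chgb (187), Scg5 (82.7), Scg2 (68.8), Scg3 (61.7), Pcsk2 (37.2), Chga (31.8), Vgf (17.6) and Pcsk1 (9.40). Log2 ratios between mouse 1 and mouse 2 had an SD of 0.66 over 19419 genes, and the neighbours Scg5 and Scg2, Scg2 and Scg3, and Pcsk2 and Chga lay closer together than this. At 4 h Scg2 followed directly after Cpe in both libraries, at 657 in mouse 1 and 284 in mouse 2, ahead of Chgb at 209 and 237. In mouse 2 Scg2 and Chgb also lay closer together than this SD. Pcsk1 followed Chgb in mouse 1 and was last in mouse 2. At 8 h Chga followed Scg2 with 81.4, whereas Vgf (26.1) and Pcsk1 (8.19) were again the lowest. Scg2 thus stood higher in this order than in the control in every kainic acid library, Chga in mouse 2 and at 8 h, Vgf in both 4 h libraries, where it passed Pcsk2, and Pcsk1 in mouse 1 only. Several of these steps involved genes closer together than the SD of 0.66. Examples are Scg2 and Chgb in mouse 2, Chga and Scg5 at 8 h, and Pcsk1 and Scg5 in mouse 1.

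Together the members took 0.353% of all gene counts in the control (exact binomial 95% interval 0.350 to 0.356), 0.409% at 1 h, 0.538% in mouse 1, 0.451% in mouse 2 and 0.403% at 8 h. Scg2 alone supplied 5.11% of this total in the control, 13.0% at 1 h, 28.3% in mouse 1, 15.7% in mouse 2 and 9.53% at 8 h. The share of Cpe was 56.6% in the control and 37.0% in mouse 1. The larger total after kainic acid thus came with a larger share of Scg2 in each library. At 8 h the share of Chgb was also higher, at 18.7% against 15.1% in the control, and that of Chga, at 5.87% against 2.59%. In these bulk samples more cells of a type and more RNA per cell cannot be told apart.

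**Figure D4:**
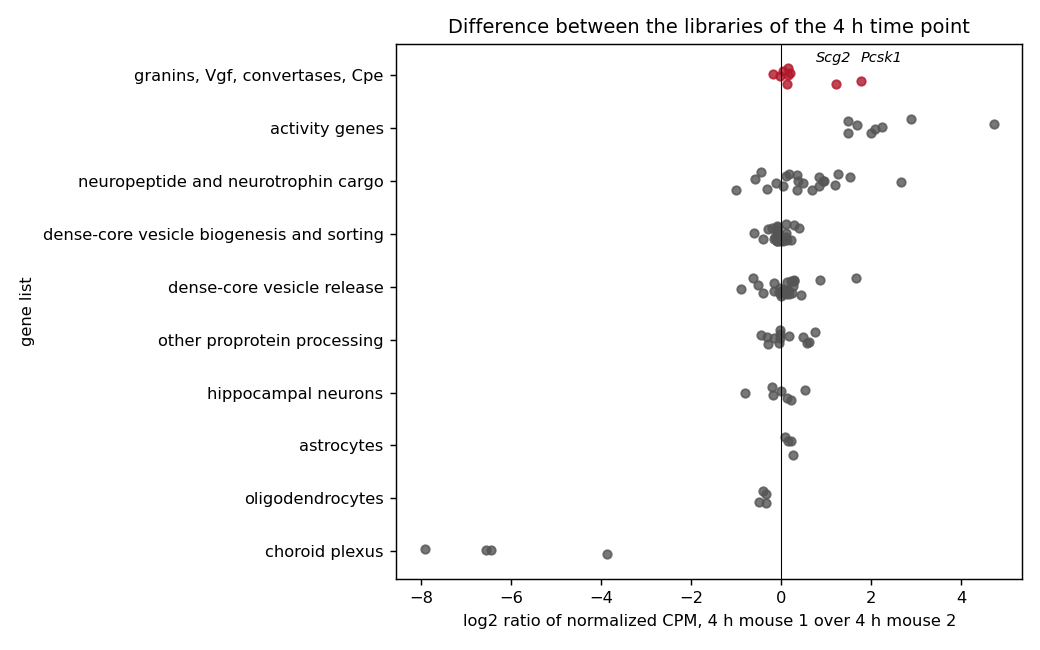
log2 ratio of normalized CPM between mouse 1 and mouse 2 at 4 h for each gene with at least 3 counts in both, by gene list (points are genes; the upper row shows the 9 members). Pcsk1 (1.77) lies within the range of the 8 activity genes (1.48 to 4.72) and Scg2 (1.21) below it, and the 4 choroid plexus markers lie between -7.93 and -3.86.

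Time points were next compared with each other. For 4 h against 1 h, edgeR called 0 members and 0.00506% of all genes, and for 8 h against 4 h it called 0 members and 0% of all genes. The unadjusted p of edgeR was under 0.05 for Vgf and Chga in the former comparison and for Vgf, Scg2, Chga and Pcsk1 in the latter, against 7.94% and 8.73% of all genes. DESeq2 and limma-voom called 0 members in both, whereas edgeR with no filter on low counts called Scg2 and Pcsk1 for 4 h against 1 h and Vgf, Scg2 and Pcsk1 for 8 h against 4 h, and with library size alone Pcsk1 for 8 h against 4 h. In the same order of comparisons, no filter gave 725 and 957 calls among 32732 genes, and library size alone gave 120 among 19768 for 8 h against 4 h. DESeq2 called 105 and 130 of the 14388 genes to which it gave an adjusted p, and limma-voom called 0 genes in both. Vgf was higher at 4 h than at 1 h in both libraries, 1.69-fold in mouse 1 and 1.52-fold in mouse 2, with a log2 fold change of 0.69 (SE 0.18) and an adjusted p of 0.513 by edgeR. For Scg2 the ratios to 1 h were 3.08 and 1.33, and for Pcsk1 they were 4.04 and 1.18. The step from 1 h to 4 h was thus small in mouse 2 and large in mouse 1 for Scg2 and Pcsk1, whereas the libraries were alike for Vgf. Chga was 1.54-fold and 1.51-fold higher at 4 h than at 1 h and again 1.51-fold and 1.55-fold higher at 8 h than in mouse 1 and mouse 2. From 4 h to 8 h the edgeR log2 fold change was -2.89 (SE 0.77) for Pcsk1, -1.70 (SE 0.51) for Scg2 and -1.04 (SE 0.18) for Vgf, with adjusted p of 0.476, 0.513 and 0.463. Taken against mouse 2 only, the 8 h level was 0.296 times that of 4 h for Pcsk1, 0.509 times for Scg2 and 0.513 times for Vgf. All 3 were thus lower at 8 h than in either 4 h library, and Pcsk1 had the steepest difference.

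Promoters were examined because Scg2, Pcsk1 and Vgf were high in the same libraries. RefSeq promoter windows (GRCm38.p6, 250 bases before to 50 after the start) were matched for 7 of the 9 members. Vgf and Cpe were not among them. Both strands were searched for the cyclic AMP response element TGACGTCA, to which CREB binds, for its shorter core TGACG or CGTCA outside a whole element, and for the AP-1 motifs TGAGTCA and TGACTCA, to which Fos and Jun proteins bind. The whole element was found in the windows of 3 members, Scg2, Chgb and Pcsk1, and in 1.79% of the 32851 windows of all genes. The following stretches show it in capitals with 11 bases on each side.
Scg2 (chr1:79440076-79440105, minus strand): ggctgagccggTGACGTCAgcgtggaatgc
Chgb (chr2:132781559-132781588, plus strand): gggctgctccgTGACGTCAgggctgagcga
Pcsk1 (chr13:75089768-75089797, plus strand): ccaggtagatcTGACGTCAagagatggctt

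The element began 68 bases before the RefSeq start in Scg2, 72 in Chgb and 78 in Pcsk1. GENCODE M21 places longer transcripts there, and the printed stretch lies within an exon of Scg2 and of Chgb but outside any exon of Pcsk1. Scg2 and Pcsk1 were past 1.5-fold at 1 h and 4 h, whereas Chgb, with the same letters at a similar distance, was between 1.12 and 1.40 times the control. The Pcsk1 window also held the shorter core 50 bases before the start. The stretch before the GENCODE start is shown for this gene because both matches, in capitals, lie in it.
Pcsk1 (chr13:75089707-75089825, plus strand): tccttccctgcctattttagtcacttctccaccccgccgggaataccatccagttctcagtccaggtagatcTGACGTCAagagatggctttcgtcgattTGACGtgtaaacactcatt

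The shorter core alone was found in Scg3, Scg5, Chga and Pcsk2, and outside a whole element in 19.5% of all windows. The AP-1 motifs were in 0 of the 7 members and in 5.2% of all windows. EGR motifs (GCGTGGGCG or GCGGGGGCG, both strands) were in the windows of Chgb and Pcsk2 and in 3.47% of all windows. These matches describe the letters of the windows, and no binding was measured here. Whether any of these motifs has a part in the member levels was not tested.

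Genes that act beside the members were examined as 4 lists. Their counts past 1.5-fold stand beside shares of all genes of 10.7% higher and 9.2% lower at 1 h, 9.91% and 6.28% at 4 h, and 13.9% and 8.94% at 8 h, and several lie near these shares, such as 2 of 12 processing genes higher at 8 h. Of 21 neuropeptide and neurotrophin cargo genes, 4 were 1.5-fold higher and 1 lower at 1 h, 10 higher and 1 lower at 4 h, and 7 higher and 2 lower at 8 h. At 4 h mouse 1 alone gave 13 higher and 1 lower, and mouse 2 alone gave 10 higher and 1 lower. Over all genes, 20.9% were higher and 16.8% lower in mouse 1 alone, and 13.6% and 10.7% in mouse 2 alone. Their median log2 fold change was 0.10, 0.93 and 0.17. Nptx2, which encodes a secreted pentraxin that clusters AMPA receptors, was at 17.3 normalized CPM in the control, 198 at 1 h, 721 in mouse 1, 402 in mouse 2 and 89.9 at 8 h. Bdnf, a neurotrophin stored in dense-core vesicles, was at 43.6, 208, 754, 316 and 96.7 in the same order, and thus highest in mouse 1 like Scg2. Npy, an inhibitory neuropeptide, was at 26.0, 30.7, 40.3, 60.7 and 88.5 and, like Chga, highest at 8 h. Pdyn, the prodynorphin gene, was at 8.24, 14.0, 66.9, 23.3 and 24.4. Trh was at most 5.70 normalized CPM, at 8 h, against 0.452 in the control, and the neurotrophin gene Ntf3 was at 5.23 in the control and 1.32 in mouse 2.

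Of 12 tested genes for other proprotein processing, 0 were past 1.5-fold at 1 h, 2 were higher at 4 h, and 2 were higher and 1 lower at 8 h. At 4 h mouse 1 alone gave 4 higher and 1 lower, and mouse 2 alone gave 2 higher and 1 lower. Furin, a convertase of the constitutive pathway, was at 29.6 normalized CPM in the control, 30.7 at 1 h, 98.2 in mouse 1, 70.2 in mouse 2 and 48.8 at 8 h. Unlike Pcsk1, it was at the control level at 1 h and above it at 8 h. Pam, which amidates peptides after Cpe has acted, was at 258, 305, 689, 413 and 261, and Pcsk5, another convertase, at 21.2, 25.1, 44.8, 30.1 and 54.2. Of 24 genes for biogenesis and sorting of dense-core vesicles, 0 were past this fold at 1 h and 1, Sorcs3, was higher at 4 h and 8 h. In mouse 1 alone 2 of these were higher, and in mouse 2 alone 1. Sorcs3, a receptor related to sortilin, was at 63.4, 64.7, 185, 140 and 207. Of 26 genes for vesicle release, 0 were higher and 1 lower at 1 h, 0 higher and 2 lower in both 4 h libraries, and 1 higher and 5 lower at 8 h. Mouse 1 alone gave 2 higher and 2 lower, and mouse 2 alone gave 0 higher and 2 lower. The lower ones included the small GTPases Rab3d (15.0, 9.05, 3.09, 5.71 and 11.8) and Rab27a (11.1, 10.8, 5.17, 5.08 and 5.59), and at 8 h Rab3b (38.2 in the control and 24.5 at 8 h), Syt10 (10.4 and 3.19) and Baiap3 (7.49 and 2.05). Rimbp2, an active zone protein, was at 113 in the control and 246 at 8 h.

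The edgeR test called 0 genes of these 4 lists at any time point. Its unadjusted p was under 0.05 at 1 h for 2 cargo genes, both higher, and at 4 h for 9 higher and 1 lower cargo gene, 3 higher processing genes, 2 higher sorting genes and 3 lower release genes. At 8 h it was under 0.05 for 3 higher and 1 lower cargo gene, 1 processing and 2 sorting genes, all higher, and 2 higher and 5 lower release genes. Some of these counts, such as 3 of 26 release genes at 4 h, were near the share of all genes at the same threshold (11.6% at 4 h). DESeq2 called Nptx2 at each time point, Bdnf and Furin at 4 h, Sorcs3 at 4 h and 8 h and Npy at 8 h, and limma-voom called 0. Of the genes to which DESeq2 gave an adjusted p, it called 50 of 16222 at 1 h, 233 of 14388 at 4 h and 33 of 17445 at 8 h. The median log2 fold change at 4 h was 0.03 for processing, -0.07 for sorting and -0.08 for release, near the 0.01 of all genes. At 8 h it was -0.03 for both processing and sorting and -0.27 for release, where 5 of 26 genes were 1.5-fold lower against 8.94% of all genes.

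**Figure D5:**
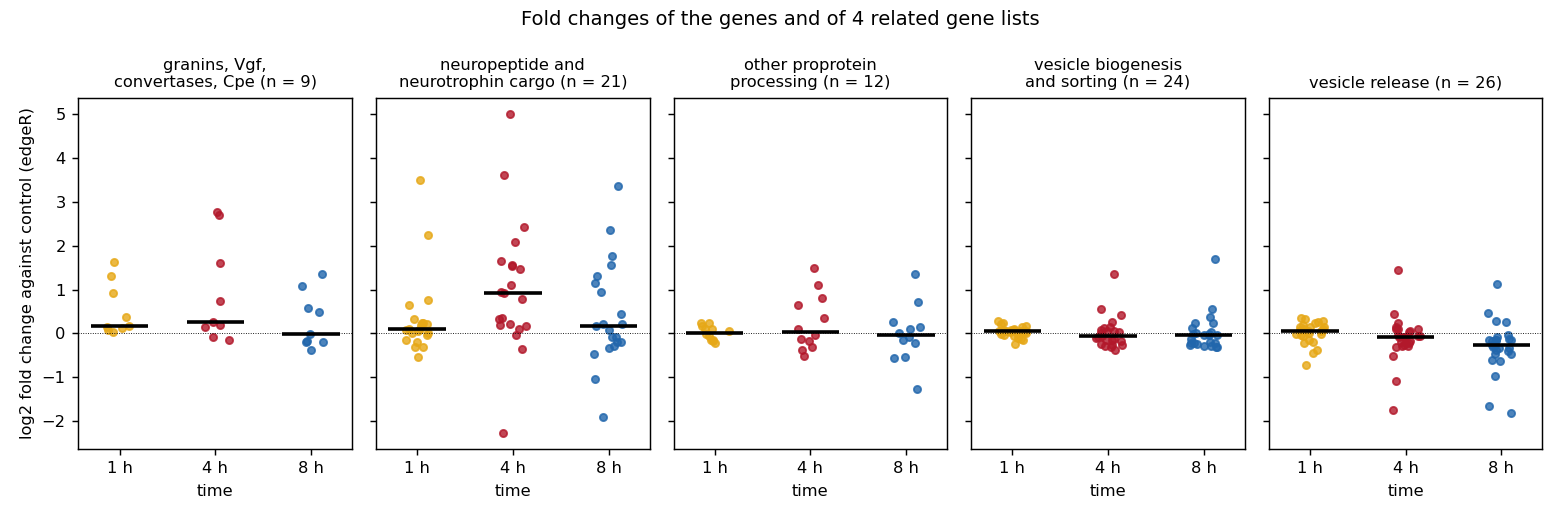
edgeR log2 fold change against the control for the members and 4 related lists at 1, 4 and 8 h (points are genes, black lines are medians, n is the number of genes tested). The median of the cargo list at 4 h was 0.93, and those of the other lists were close to 0.

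Markers of other cells were summed in the same way. Hippocampal neuron markers summed to 3725 normalized CPM in the control, 3862 at 1 h, 3748 in mouse 1, 3487 in mouse 2 and 3348 at 8 h, while single markers differed. Prox1, a transcription factor of granule cells, was 2.86-fold and 1.99-fold above the control in mouse 1 and mouse 2 and was called by DESeq2 at 4 h, Neurod2 was at 0.611 times the control in mouse 1, 1.08 in mouse 2 and 1.97 at 8 h, and Rbfox3 was at 0.688 and 0.692 times the control in the 4 h libraries. The part of these differences in the member levels was not tested. Interneuron markers summed to 414, 477, 719, 596 and 432, and single markers differed here as well. Gad1 was at 2.01 and 1.48 times the control in mouse 1 and mouse 2, and Gad2 at 1.47 and 1.52. Slc32a1 was at 0.892 and 1.24 times the control in these libraries, and Pvalb at 1.08 and 0.958. Oligodendrocyte markers summed to 2978, 3724, 3514, 4529 and 2994, microglia markers to 165, 167, 133, 140 and 149, and endothelial markers to 116, 107, 119, 93.6 and 115. Blood markers were highest in mouse 1, at 226 against 130 in the control. Markers of the pituitary, where granins and convertases are abundant, summed to at most 1.42 in any library, and Pou1f1 was at 0 counts in each. Of the thalamic and hypothalamic markers, Tcf7l2 was the most abundant in mouse 1, at 13.1 against 2.66 (control), 2.67 (1 h), 4.18 (mouse 2) and 1.88 (8 h). Lef1 was also highest in mouse 1, at 7.31 against 3.52 in the control. Avp was highest at 8 h, at 0.570 against 0.178 in mouse 1 and 0.201 in the control. Oxt, Hcrt and Pmch were at most 0.238 in any library. The part of neighbouring tissue in the member levels of mouse 1 was not tested.

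Likeness in pattern was measured as the root mean square difference of log2 ratios to the control over the 4 kainic acid libraries, among 10723 other genes with at least 10 normalized CPM in some library. The genes closest to Vgf were Hectd2 (0.14), Stmn4 (0.17), Rel (0.21), Emilin2 (0.22) and Synpo (0.24), and Hectd2 and Stmn4 remained first and second without mouse 1. Hectd2 was at 43.4 normalized CPM in the control, 74.1 at 1 h, 164 in mouse 1, 127 in mouse 2 and 63.7 at 8 h. Closest to Scg2 were Gm48869 (0.20), 5430434F05Rik (0.34), Emp1 (0.35), Stk40 (0.36) and Rgs4 (0.36). Rgs4, a regulator of G protein signalling, was at 142, 517, 851, 537 and 294 in the same order and was second without mouse 1. Closest to Pcsk1 were Gm47657 (0.29), Rnd3 (0.38), Magoh (0.41), Cd14 (0.41) and Dusp4 (0.47), and apart from Gm47657 they moved to ranks 26, 36, 18 and 41 without mouse 1. Gm47657 and Cd14, and near Scg2 Gm48869, 5430434F05Rik and Emp1, reached 10 normalized CPM in mouse 1 only, as did Rel near Vgf, and Emilin2 reached it in mouse 2 only. The limit on level itself thus admitted genes that were high in these libraries. Scg2 was at rank 38 from Pcsk1 with a difference of 0.70, and at rank 420 without mouse 1. Vgf was at rank 139 from Pcsk1, and at rank 49 without mouse 1, where the difference was 0.50. With mouse 1 included, the other 6 members were at rank 792 or beyond from Scg2.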

How the data were processed

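The authors prepared stranded total RNA libraries, aligned reads with STAR (2.5.1b) to GRCm38.p4 per the submitters' processing notes and deposited HTSeq counts for each gene, without normalization. No version or strand setting of HTSeq and no annotation release is stated. Reads on no gene (24.7 to 33.1% of all deposited reads), ambiguous and multiply aligned reads were left out. Of the 55385 identifiers, 55144 were matched in GENCODE M21 for positions and exon lengths.

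The analysis used edgeR 4.0.16 under R 4.3.3 (filterByExpr, TMM factors 1.04, 0.992, 0.924, 0.991 and 1.06, 4 groups, glmQLFTest, Benjamini-Hochberg adjustment over 19768 genes, prior count 2 for log2 fold changes). The edgeR test gives no SE. Each printed SE is the size of the log2 fold change without prior count, divided by the square root of the test's F statistic. Other settings tried were library size alone, median-of-ratios factors, no filter, DESeq2 1.42.0, limma-voom (limma 3.58.1), a fold of 2 and single 4 h libraries. The protocol also names the MEK inhibitor SL327, but no library is labelled with it. The p-values rest on the spread of the 4 h pair. These libraries were not duplicates, and their spread exceeded counting error (chi-square 34.7 per gene). The labels do not say whether each library came from 1 animal, so whether this is spread between single animals is not known.

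Members and lists were chosen with earlier results of these data known. Named were all members, list genes past 1.5-fold with at least 5 normalized CPM (the 6 largest per list), Fos and Npas4 as activity genes, single marker genes and Pcsk1n (chosen after their values were seen) and the 5 nearest genes in pattern to each of Vgf, Scg2 and Pcsk1. Python 3.11.15 with matplotlib 3.10.9 drew the figures.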

Additional observations from a re-analysis of the deposited data

Results flagged for a closer look

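Reads on no gene made up 24.7% of all deposited reads in the control and 29.0% at 1 h, 33.1% in mouse 1, 25.3% in mouse 2 and 30.9% at 8 h. They lie outside the gene counts and were above the control in each kainic acid library, and their origin was not tested.

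Pcsk1 was above the control at 1 h and 4 h and below it at 8 h, where the log2 ratio was -0.20. Scg3 showed the same directions, with a log2 ratio of -0.18 at 8 h. Pcsk2 was above the control at 1 h and below it at 4 h and 8 h, with log2 ratios of -0.0661 in mouse 1, -0.25 in mouse 2 and -0.20 at 8 h. In these cases no library had a ratio of 1 within its counting interval, which leaves variation between animals aside. The difference between 8 h and 4 h had an adjusted p of 0.476 for Pcsk1 and 0.635 for Scg3 in edgeR, and that between 4 h and 1 h an adjusted p of 0.698 for Pcsk2, so none passed the threshold in the main analysis. The Pcsk1 difference between 8 h and 4 h did pass in edgeR with library size alone and with no filter on low counts, and its adjusted p over all settings ranged from 6.39e-34 to 0.676.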

How the results depend on the processing

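The number of genes called depended on the setting. At 1 h, 4 h and 8 h edgeR called 57, 237 and 22 genes with library size alone and 285, 1300 and 279 with no filter on low counts, and DESeq2 called 50, 233 and 33. At 4 h, 0 genes were called with median-of-ratios factors and 0 with limma-voom. The cause was not tested. Of 225 log2 fold changes of the members recomputed with a test, 201 kept their direction and their side of the threshold, 20 passed it and 4 changed sign. Of 54 values from a single 4 h library, which have no test, 2 had the other sign than the main value: Scg3 at 4 h against 1 h in mouse 1 (0.0689) and Pcsk2 at 8 h against 4 h with mouse 2 (0.05001). With no filter, Vgf, Scg2 and Pcsk1 passed at 1 h, these and Chga at 4 h, Scg2 and Chga at 8 h, Scg2 and Pcsk1 at 4 h against 1 h, and Vgf, Scg2 and Pcsk1 at 8 h against 4 h. With library size alone Vgf, Scg2 and Pcsk1 passed at 4 h, and Pcsk1 at 8 h against 4 h. In DESeq2 Vgf passed at 4 h and Chga at 8 h. In the values with a test the sign changed for Scg3 at 4 h against 1 h with median-of-ratios factors (0.00337), and with library size alone for Scg5 at 1 h (-0.00476), Cpe at 1 h (-0.0451) and Pcsk2 at 8 h against 4 h (0.0998). Their main log2 fold changes were at most 0.07 in size. Library size alone moved the median of all genes at 4 h to -0.11. The members past 1.5-fold at 4 h numbered 4 in both mouse 1 and mouse 2 alone, but with library size alone 3 at 4 h and 3 at 8 h. Past a fold of 2 there were 2 at 1 h, 3 at 4 h and 2 at 8 h. For a fold of 2, and for 1.5-fold with library size alone, no background over all genes is given. Whether these member counts exceed such a background was not tested. The comparisons between time points and of single 4 h libraries in lists and patterns were added after seeing the data. Without a second library at 1 h, 8 h and in the control, no replicate error could be measured there.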
